A study of Mus musculus with 10 samples.

Results

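The chemokine system of obese visceral fat was measured here as 52 genes: 34 ligands and 18 receptors, out of 17097 genes with a named probe set on the array. Members are all genes whose symbol in the platform annotation begins with Ccl, Cxcl, Cx3cl, Xcl, Ccr, Cxcr, Cx3cr, Xcr or Ackr followed by a number. Each gene was read by the probe set, among those with a single symbol, that had the highest mean over all 10 arrays. The tissue was epididymal white fat, a visceral depot beside the testis. All donors were males with a C57/Bl6 background. All mice were 8 to 12 weeks old at the start and ate a diet with 45% of its energy as fat for 16 weeks, the wild-type controls included. The groups were 3 ASC-/- mice, which the labels also call ASC1 null and which lack the adaptor protein of several inflammasomes, 3 Casp1-/- mice, which lack the protease that inflammasomes switch on, and 4 wild-type (WT) mice. The labels name no driver or cell type for either knockout, and 1 array was run per mouse on the HT_MG-430 PM platform. No lean or chow-fed group is part of these comparisons.

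Chemokines are small secreted proteins that guide leukocytes along gradients and act on receptors coupled to G proteins. In fat, ligands of Ccr2 bring in monocytes, ligands of Cxcr2 bring in neutrophils, eotaxins act on eosinophils, and Cxcl12 is made by stromal cells of many tissues. Atypical receptors (Ackr) bind chemokines without coupling to G proteins and take them up. Inflammasomes release interleukin-1 beta and interleukin-18, and the first of these is known to induce several chemokine genes in other cells.

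The values are log2 signals, 1 unit is a 2-fold difference, and a value after ± beside a difference is its standard error (SE). Signals of 23 control probe sets with no mouse target had medians of 2.91 to 3.15 per array and reached at most 5.01, so a group mean up to that level is called here within the background range. By this measure 27 members lay above background in at least 1 genotype, 23 ligands and only 4 receptors (Ackr2, Ackr3, Ccr1 and Ccr2). The targeted genes fitted the labels: Pycard, which encodes ASC, read 3.20, 3.71 and 3.30 in ASC-/- fat, and Casp1 read 4.86, 4.98 and 4.69 in Casp1-/- fat, while every other array had at least 8.39 for Pycard and 8.71 for Casp1. Means over 9 adipocyte markers were high on all arrays, at 10.82 to 11.17 in ASC-/-, 11.52 to 11.61 in Casp1-/- and 10.34 to 11.34 in WT. Pnpla2, 1 of the 9, averaged 4.60 in ASC-/-, 4.42 in Casp1-/- and 4.58 in WT, all within the background range. Of 7 epididymis markers 6 lay within the background range, and the mean of the 7 was highest on Casp1-/- replicate 2, at 4.16.

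Before the comparisons, some features of the arrays must be given. Spike-in transcripts added before labelling split them into a set with high spike-in signal (means of 7.51 to 8.07), which held the 3 Casp1-/- arrays and WT replicate 1, and a set with low signal (means of 5.76 to 6.50), which held all ASC-/- arrays and WT replicates 2, 3 and 4. Genotype and set therefore coincide except for WT replicate 1, and a fit with the set as a block compares Casp1-/- with that single WT array, directly or, for ASC-/- against Casp1-/-, by way of it. Values with the block are given with the calls of chemokine genes below. The actin control's 3' minus 5' signal also differed between the knockouts without overlap. It was 0.59, 0.54 and 0.67 in ASC-/- and 0.98, 0.82 and 0.84 in Casp1-/-. In WT it was 1.05, 0.91, 0.53 and 0.46. With this value as a covariate, 7 of 19 chemokine calls held. Calls also turn on single arrays. Without Casp1-/- replicate 2 no chemokine gene passed the threshold in a contrast with Casp1-/-. Without ASC-/- replicate 1 no chemokine gene passed in ASC-/- against Casp1-/-.

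Casp1-/- fat differed from WT fat in 9 of the 52 chemokine genes. Ligands were called in both directions, with 5 lower (Ccl9, Ccl6, Cxcl12, Cxcl14 and Cxcl16) and 2 higher (Ccl24 and Ccl12) of 34, and receptors likewise, with Ccr1 lower and the scavenger Ackr3 higher of 18. Over all genes tested, 8.17% passed the same threshold, an adjusted p under 0.05 in limma, with 4.31% higher and 3.86% lower. The called ligands are 20.6% of all ligands, and the called receptors 11.1% of all receptors. The median difference was -0.083 over ligands and -0.025 over receptors, beside 0.041 over all genes. In whole tissue, fewer cells of a type and less RNA per cell cannot be told apart, which touches every value below.

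**Figure D1:**
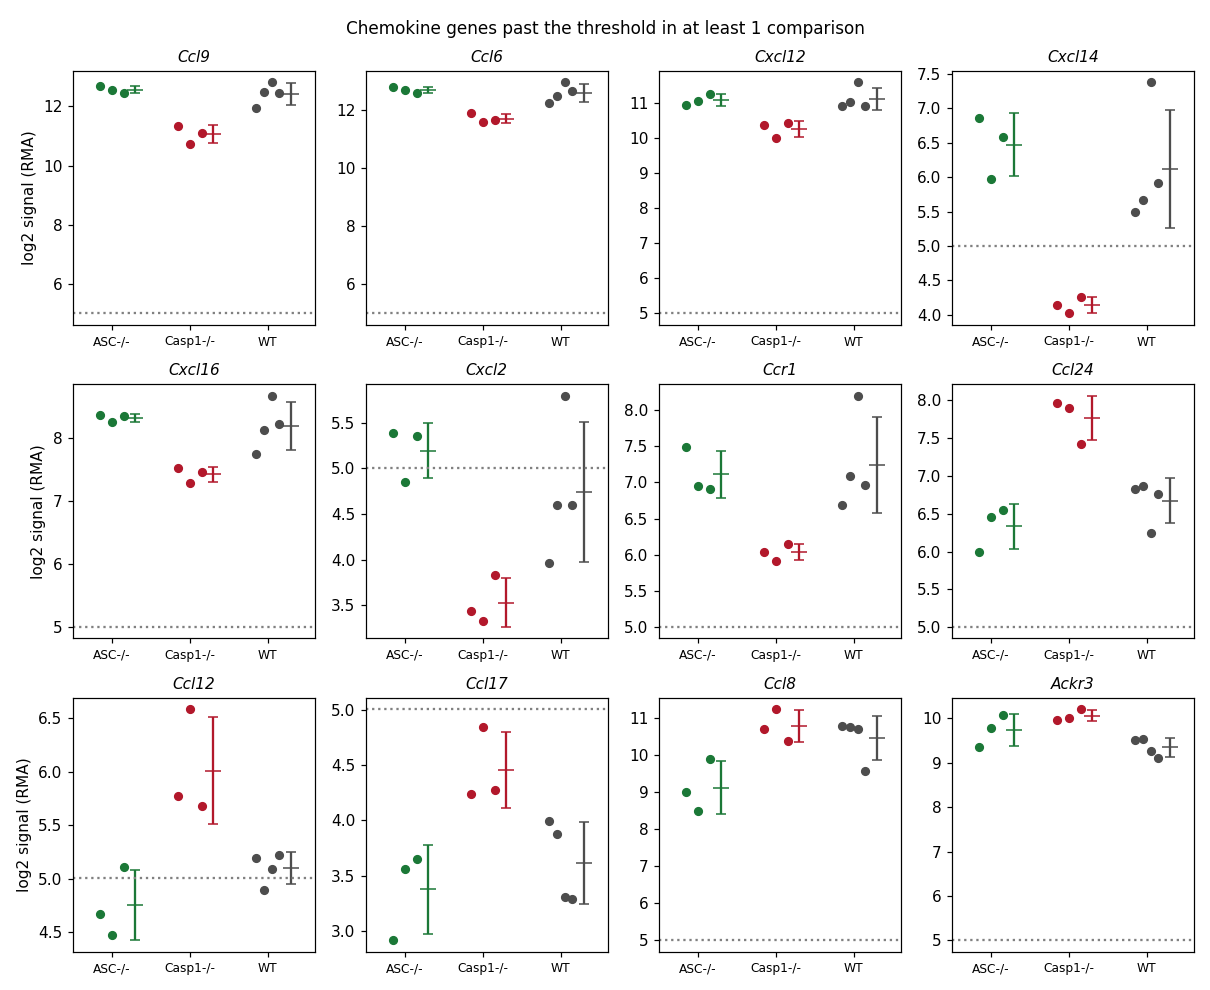
Log2 signal (RMA) of the 12 chemokine genes past the threshold in at least 1 comparison, 1 point per array (ASC-/- n = 3, Casp1-/- n = 3, WT n = 4), with mean ± SD as bars; the dotted line is the highest non-mouse control, 5.01, and the vertical axes differ between panels. Casp1-/- points lie below all WT points for Ccl9, Ccl6, Cxcl12, Cxcl14, Cxcl16, Cxcl2 and Ccr1, and above all of them for Ccl24, Ccl12, Ccl17 and Ackr3.

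Ccl9 and Ccl6, neighbouring mouse genes whose products both act on Ccr1, were lower together. Ccl9 read 11.34, 10.73 and 11.10 in Casp1-/- fat, against 11.94, 12.47, 12.81 and 12.45 in WT fat. All Casp1-/- arrays lay below all WT arrays, and the difference was -1.36 ± 0.20 (SE), adjusted p = 0.011, which is 2.57-fold lower. A further Ccl9 probe set gave -1.75 (adjusted p = 0.0176). Ccl6 read 11.88, 11.58 and 11.64 in Casp1-/- fat, against 12.23, 12.47, 12.95 and 12.65 in WT fat, again with no overlap (-0.87 ± 0.16 (SE), adjusted p = 0.018). With the spike-in set as a block the differences were -0.89 (adjusted p = 0.152) for Ccl9 and -0.53 (adjusted p = 0.321) for Ccl6. The Ccl9 call was lost without Casp1-/- replicate 2 (-1.20, adjusted p = 0.0528), and the Ccl6 call without Casp1-/- replicates 2 or 3 or WT replicate 4 (-0.85 to -0.81, adjusted p = 0.0527 to 0.0801).

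Their receptor Ccr1, carried by monocytes, macrophages and neutrophils, was lower too. It read 6.04, 5.92 and 6.14 in Casp1-/- fat, against 6.69, 7.09, 8.20 and 6.97 in WT fat, a difference of -1.20 ± 0.31 (SE), adjusted p = 0.0478 (2.30-fold lower). The groups did not overlap, though WT replicate 3 was far above the other WT arrays. This is the call closest to the threshold: it was lost without ASC-/- replicates 1, 2 or 3, Casp1-/- replicates 1, 2 or 3 or WT replicates 2 or 4 (-1.29 to -1.15, adjusted p = 0.0555 to 0.144), and was -1.20 (adjusted p = 0.0503) once arrays were centred on their medians. The blocked difference was -0.66 (adjusted p = 0.629). A dimmer Ccr1 probe set, within the background range, gave -0.22 (adjusted p = 0.206).

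Further ligands that were lower are Cxcl14, Cxcl16 and Cxcl12. Cxcl14, a chemokine of epithelial and stromal tissue, read 4.14, 4.02 and 4.26 in Casp1-/- fat, against 5.49, 5.67, 7.38 and 5.92 in WT fat. Each Casp1-/- value lay within the background range and each WT value above it, so the size of the difference, -1.97 ± 0.41 (SE), adjusted p = 0.0249, is uncertain. A dimmer Cxcl14 probe set had the same direction and missed the threshold (-0.91, adjusted p = 0.131).

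Cxcl16 is a membrane-bound ligand of Cxcr6 that also takes up oxidised lipoprotein. It read 7.52, 7.28 and 7.45 in Casp1-/- fat, against 7.75, 8.13, 8.66 and 8.22 in WT fat, with no overlap (-0.77 ± 0.18 (SE), adjusted p = 0.0349). Its other probe set gave -0.81 (adjusted p = 0.054). The differences with the block were -1.35 (adjusted p = 0.408) for Cxcl14 and -0.33 (adjusted p = 0.589) for Cxcl16. The Cxcl14 call was lost without Casp1-/- replicates 1, 2 or 3 or WT replicate 4 (-2.04 to -1.92, adjusted p = 0.0596 to 0.0969), and the Cxcl16 call without ASC-/- replicates 2 or 3, Casp1-/- replicates 1, 2 or 3 or WT replicate 4 (-0.82 to -0.70, adjusted p = 0.0539 to 0.123).

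Cxcl12, which acts on Cxcr4 and is taken up by Ackr3, depended on the probe set. The brightest one read 10.37, 10.01 and 10.43 in Casp1-/- fat, against 10.94, 11.04, 11.60 and 10.93 in WT fat, without overlap (-0.86 ± 0.18 (SE), adjusted p = 0.0252). A further probe set, also above background, averaged 8.42 in Casp1-/- and 8.24 in WT, a difference of 0.18 with the opposite sign (adjusted p = 0.663). The dimmest of them, within the background range, gave 0.027, and the mean over the probe sets was -0.22 (adjusted p = 0.268). Transcript forms of this gene with different 3' ends were not told apart, so the fall holds for the brightest probe set alone. It was lost without Casp1-/- replicates 1, 2 or 3 or WT replicate 4 (-0.94 to -0.73, adjusted p = 0.053 to 0.104), and with the block it was -0.67 (adjusted p = 0.371).

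Higher in Casp1-/- fat were the eotaxin Ccl24, which draws eosinophils through Ccr3 and is made by alternatively activated macrophages, and Ccl12, a Ccr2 ligand known from mice. Ccl24 read 7.97, 7.90 and 7.43 in Casp1-/- fat, against 6.83, 6.87, 6.24 and 6.76 in WT fat. Every Casp1-/- array lay above every WT array (1.09 ± 0.20 (SE), adjusted p = 0.0195, 2.13-fold higher). Ccl12 read 5.77, 6.58 and 5.68 in Casp1-/- fat, against 5.19, 4.89, 5.09 and 5.22 in WT fat, where 1 of 4 arrays was within the background range and the others just above it (0.91 ± 0.23 (SE), adjusted p = 0.0416). Casp1-/- replicate 2 was the highest Ccl12 array, and the difference without it was 0.63 (adjusted p = 0.109). The blocked values were 0.93 (adjusted p = 0.275) for Ccl24 and 0.82 (adjusted p = 0.409) for Ccl12. Calls were lost without Casp1-/- replicates 1 or 2 or WT replicate 4 (0.99 to 1.12, adjusted p = 0.0505 to 0.0853) for Ccl24, and without ASC-/- replicates 1 or 2, Casp1-/- replicates 1, 2 or 3 or WT replicates 2, 3 or 4 (0.63 to 1.08, adjusted p = 0.0567 to 0.109) for Ccl12.

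Ackr3, formerly Cxcr7, the atypical receptor that clears Cxcl12, was the receptor that rose. It read 9.96, 10.0004 and 10.20 in Casp1-/- fat, against 9.51, 9.52, 9.25 and 9.09 in WT fat, with no overlap (0.71 ± 0.17 (SE), adjusted p = 0.0381, 1.64-fold higher). The blocked difference was 0.54 (adjusted p = 0.464), and the call was lost without ASC-/- replicate 2, Casp1-/- replicates 1, 2 or 3 or WT replicates 3 or 4 (0.63 to 0.75, adjusted p = 0.064 to 0.123). Cxcr4, the signalling receptor for the same ligand, is not analysed here.

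Further CC ligands had negative estimates in Casp1-/- fat and did not pass. Ccl3 read 5.06, 4.38 and 4.55 in Casp1-/- fat, against 5.56, 5.47, 7.54 and 7.47 in WT fat, which did not overlap (-1.84 ± 0.59 (SE), adjusted p = 0.0817). WT replicates 3 and 4 were about 2 units above WT replicates 1 and 2. Ccl4 read 4.85, 4.69 and 4.85 in Casp1-/- fat, all within the background range, against 5.05, 5.15, 5.97 and 5.67 in WT fat (-0.66 ± 0.22 (SE), adjusted p = 0.0876). Ccl5, made by T cells and natural killer cells among others, read 7.41, 7.66 and 8.14 in Casp1-/- fat, against 7.86, 8.14, 8.39 and 8.50 in WT fat, and the groups overlapped (-0.49 ± 0.23 (SE), adjusted p = 0.208).

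The monocyte axis of Ccl2, Ccl7 and Ccr2 did not pass the threshold. Ccl2, the ligand most often tied to monocyte entry into fat, read 9.13, 8.43 and 8.68 in Casp1-/- fat, against 8.73, 9.62, 9.40 and 8.87 in WT fat (-0.41 ± 0.24 (SE), adjusted p = 0.315), with a 95% confidence interval of -0.95 to 0.14. Ccl7 read 8.79, 8.01 and 8.21 in Casp1-/- fat, against 7.99, 8.83, 8.26 and 7.58 in WT fat (0.17 ± 0.31 (SE), adjusted p = 0.762). Ccr2, their receptor, read 8.48, 8.56 and 8.68 in Casp1-/- fat, against 8.53, 9.25, 8.70 and 8.08 in WT fat (-0.068 ± 0.25 (SE), adjusted p = 0.897), and the Casp1-/- values lay inside the WT range. Ccl8, whose product acts on Ccr8 in mice, read 10.69, 11.22 and 10.37 in Casp1-/- fat, against 10.78, 10.76, 10.69 and 9.56 in WT fat, and only WT replicate 4 stood apart (0.31 ± 0.39 (SE), adjusted p = 0.651).

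Among the Cxcr2 ligands, which guide neutrophils, Cxcl2 was low in Casp1-/- fat without passing. It read 3.44, 3.32 and 3.83 there, all within the background range, against 3.96, 4.59, 5.79 and 4.59 in WT fat, where 3 of 4 arrays were in that range too (-1.21 ± 0.36 (SE), adjusted p = 0.0705). Cxcl1 read 5.14, 5.28 and 5.44 in Casp1-/- fat, against 4.80, 5.41, 5.73 and 5.26 in WT fat, and the groups overlapped (-0.015 ± 0.26 (SE), adjusted p = 0.979). Cxcl5 and the receptor Cxcr2 lay within the background range on every array, at 2.95 to 3.05 and 3.60 to 3.98 in Casp1-/-, against 2.99 to 3.12 and 3.75 to 4.02 in WT.

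The interferon-induced ligands of Cxcr3 did not pass either. Cxcl9 read 8.28, 8.64 and 9.35 in Casp1-/- fat, against 9.10, 8.92, 8.32 and 8.99 in WT fat (-0.075 ± 0.29 (SE), adjusted p = 0.899). Cxcl10 read 4.95, 4.76 and 5.21 in Casp1-/- fat, against 5.51, 6.05, 5.59 and 4.81 in WT fat (-0.52 ± 0.29 (SE), adjusted p = 0.281). For Cxcl9 the groups were interleaved, and for Cxcl10 only WT replicate 4 reached down into the Casp1-/- range. Cxcr3, the receptor on T cells, was dim, at 4.70, 4.55 and 4.64 in Casp1-/- fat, against 4.45, 4.54, 5.25 and 5.10 in WT fat (-0.21 ± 0.19 (SE), adjusted p = 0.529).

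Lymphoid ligands varied widely between mice of one genotype. Cxcl13, which guides B cells through Cxcr5, read 7.99, 8.32 and 5.97 in Casp1-/- fat, against 6.83, 6.62, 7.18 and 9.12 in WT fat (-0.012 ± 0.81 (SE), adjusted p = 0.996). Ccl21b, a Ccr7 ligand of lymphatic vessels, read 10.06, 11.28 and 10.20 in Casp1-/- fat, against 9.61, 10.12, 6.54 and 7.98 in WT fat, a difference of 1.95 ± 0.82 (SE), adjusted p = 0.159 that missed the threshold. The Ccl21 genes are near-identical copies, so its probe set may bind more than 1 of them. Means of 5 lymphatic endothelial markers were 5.96, 6.37 and 5.78 in Casp1-/-, against 5.67, 5.95, 5.01 and 5.23 in WT, and none of the 5 passed the threshold. The part of these cells in the result was not tested. Ccl19, the other Ccr7 ligand, read 7.51, 7.14 and 6.96 in Casp1-/- fat, against 7.05, 7.40, 6.87 and 6.68 in WT fat, which overlapped (0.21 ± 0.32 (SE), adjusted p = 0.722). Cxcr5 was within the background range on every array, at 3.29 to 3.87 in Casp1-/- and 3.48 to 3.79 in WT.

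Ccl11, the eotaxin that stromal cells make, did not pass. It read 9.17, 8.83 and 9.27 in Casp1-/- fat, against 8.18, 8.98, 10.22 and 9.94 in WT fat (-0.24 ± 0.42 (SE), adjusted p = 0.751). Their receptor Ccr3 was within the background range, at 2.99, 3.07 and 3.12 in Casp1-/- fat, against 2.91, 3.24, 3.81 and 3.57 in WT fat. Ccl17 and Ccl22, the Ccr4 ligands, were dim as well. Ccl17 read 4.24, 4.85 and 4.28 in Casp1-/- fat, against 4.00, 3.88, 3.31 and 3.29 in WT fat, without overlap but short of the threshold (0.84 ± 0.25 (SE), adjusted p = 0.0698). Ccl22 read 4.31, 4.65 and 4.05 in Casp1-/- fat, against 4.16, 4.53, 4.01 and 3.88 in WT fat (0.19 ± 0.19 (SE), adjusted p = 0.561).

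The membrane-bound ligand Cx3cl1 and its receptor Cx3cr1, found on resident macrophages of several tissues, were within the background range in all genotypes. Cx3cl1 read 4.14, 3.92 and 4.18 in Casp1-/- fat, against 4.10, 3.99, 4.89 and 4.22 in WT fat (-0.22 ± 0.20 (SE), adjusted p = 0.516). Cx3cr1 read 4.08, 4.43 and 4.28 in Casp1-/- fat, against 4.11, 4.70, 4.52 and 4.48 in WT fat (-0.19 ± 0.16 (SE), adjusted p = 0.479). Cxcr6, the Cxcl16 receptor of some T cells, read 3.46, 3.71 and 3.73 in Casp1-/- fat, against 3.66, 3.75, 3.91 and 3.74 in WT fat, in the background range too (-0.13 ± 0.11 (SE), adjusted p = 0.471).

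No overlap between Casp1-/- and WT arrays was seen for 12 ligands, 8 lower and 4 higher, and for 2 receptors, 1 in each direction. Of the ligands 35.3% and of the receptors 11.1% had no overlap, beside 24.7% of all genes (9.6% lower and 15.1% higher). Unadjusted p-values under 0.05 were reached by 15 ligands and 3 receptors, beside 27.6% of all genes.

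Macrophage markers moved with these results. The mean of 19 pan-macrophage markers, none within the background range, was 9.05, 8.74 and 9.05 in Casp1-/- fat, against 9.60, 10.06, 11.01 and 10.58 in WT fat and 10.23 to 10.70 in ASC-/- fat, and 14 of the 19 were lower in Casp1-/- than in WT with none higher. Of 14 markers of lipid-associated macrophages, 10 were lower, with means of 9.30 to 9.99 in Casp1-/- and 10.82 to 11.96 in WT. Of 12 resident macrophage markers, 1 was higher and 2 were lower, with means of 8.34 to 8.75 in Casp1-/- and 8.54 to 8.58 in WT. Over all genes tested, 4.31% were higher and 3.86% lower. WT replicate 1, the WT array with high spike-in signal, had the lowest pan-macrophage mean of the WT arrays, and also the lowest Ccl9, Ccl6, Cxcl14, Cxcl16 and Ccr1. With the spike-in set as a block, and without Casp1-/- replicate 2, settings added for the lists after the data were seen, 0 markers of these 3 lists passed. The pan-macrophage median difference, -1.43, was -0.69 with the block and -1.30 without that array. Of 9 adipocyte markers, Pparg alone was higher in Casp1-/- than in WT (0.88 ± 0.18 (SE), adjusted p = 0.0234 in limma) and none was lower. The adipocyte list median was 0.62, and 0.19 with the block. Without Casp1-/- replicate 2 it was 0.58, and 0 of the 9 passed. The part of macrophage or adipocyte number in the chemokine differences was not tested.

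**Figure D2:**
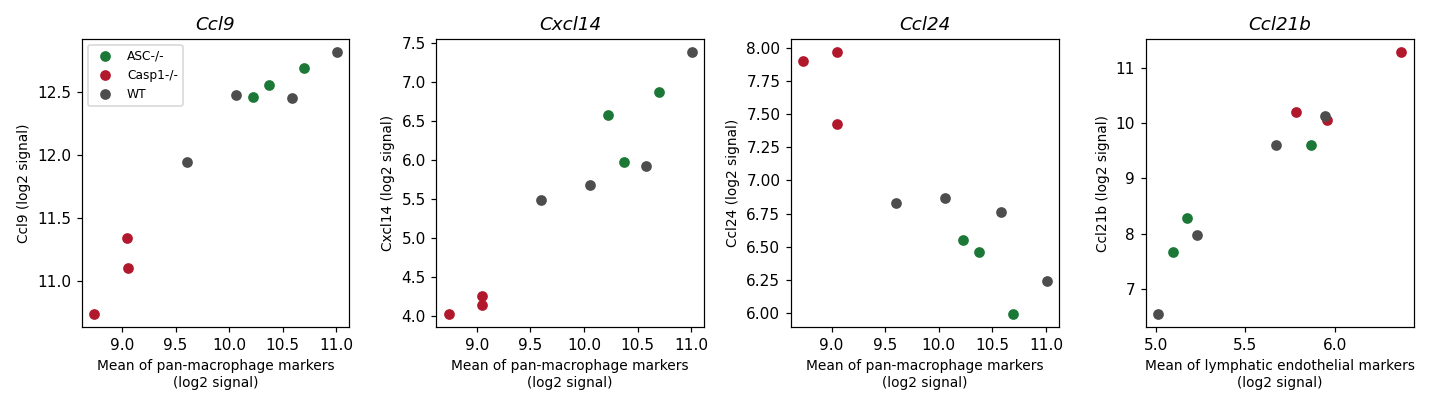
Log2 signal of 4 chemokine genes, chosen after their values were seen, against the mean log2 signal of a marker list on the same array, 1 point per array (ASC-/- n = 3, Casp1-/- n = 3, WT n = 4). The 3 Casp1-/- arrays have the lowest pan-macrophage means (8.74 to 9.05) together with the lowest Ccl9 and Cxcl14 and the highest Ccl24, and Casp1-/- replicate 2 has the highest Ccl21b together with the highest lymphatic endothelial mean, 6.37.

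In ASC-/- fat no chemokine gene differed from WT fat by the same test. Of 34 ligands and 18 receptors, 0 passed in limma, where 0.0351% of all genes did, and the smallest adjusted p over both classes was 1.00. At an unadjusted p under 0.05 there were 3 ligands (Ccl8, Ccl5 and Ccl2) and 2 receptors (Cxcr6 and Ackr3), beside 342 of all genes (2%). The median difference was -0.037 over ligands and -0.0081 over receptors, beside 0.0050 over all genes. The WT arrays are the same as in the Casp1-/- comparison, so each contrast is given with its own values. With only the arrays of low spike-in signal, an alternative added after the data were seen, 0 ligands and 0 receptors passed as well.

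The 5 ligands that fell in Casp1-/- fat had intervals on both sides of 0 in ASC-/- fat. Ccl9 read 12.69, 12.55 and 12.46 and Ccl6 read 12.78, 12.68 and 12.59 in ASC-/- fat, both inside the WT range given above. Their differences from WT were 0.15 ± 0.20 (95% confidence interval -0.30 to 0.60) for Ccl9 and 0.11 ± 0.16 (-0.24 to 0.47) for Ccl6. Cxcl14 read 6.86, 5.97 and 6.58 (0.35 ± 0.41, interval -0.57 to 1.28). Cxcl16 read 8.36, 8.25 and 8.35 (0.13 ± 0.18, interval -0.27 to 0.53). The brightest Cxcl12 probe set read 10.94, 11.06 and 11.28 (-0.034 ± 0.18, interval -0.44 to 0.37). The receptor Ccr1 read 7.49, 6.95 and 6.91 in ASC-/- fat, where the interval was -0.83 to 0.58.

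Ccl24 and Ccl12, which rose in Casp1-/- fat, had negative estimates in ASC-/- fat that did not pass. Ccl24 read 5.99, 6.46 and 6.55 in ASC-/- fat (-0.34 ± 0.20 (SE), adjusted p = 1.00, interval -0.80 to 0.12). Ccl12 read 4.67, 4.47 and 5.12 (-0.34 ± 0.23 (SE), adjusted p = 1.00, interval -0.85 to 0.17). Ackr3 read 9.35, 9.78 and 10.06, and its estimate was positive in this knockout too (0.39 ± 0.17 (SE), adjusted p = 1.00).

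The largest ASC-/- estimate among the members belonged to Ccl8. It read 8.99, 8.47 and 9.89 in ASC-/- fat, against 10.78, 10.76, 10.69 and 9.56 in WT fat, and ASC-/- replicate 3 reached above WT replicate 4. The difference of -1.33 ± 0.39 (SE, interval -2.21 to -0.45) had an unadjusted p of 0.00757 and an adjusted p of 1.00 over all genes in limma. Ccl5 read 7.45, 7.33 and 8.05 in ASC-/- fat (-0.61 ± 0.23, unadjusted p = 0.026 in limma). Ccl2 read 9.50, 9.74 and 9.95 in ASC-/- fat, with an estimate above 0 (0.58 ± 0.24, unadjusted p = 0.0409 in limma). For each of these genes the ASC-/- and WT arrays overlapped, and none is called.

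Other members of the monocyte axis overlapped between ASC-/- and WT. Ccl7 read 8.08, 8.53 and 8.87 in ASC-/- fat (0.33 ± 0.31), and Ccr2 read 8.69, 9.27 and 9.38 (0.47 ± 0.25, interval -0.10 to 1.04). Ccl3 read 7.28, 6.56 and 5.69 (-0.0014 ± 0.59), all inside the WT range, and Ccl4 read 5.50, 5.08 and 5.10 (-0.23 ± 0.22). The neutrophil ligands Cxcl1 and Cxcl2 read 5.31, 4.78 and 5.79 (-8.6e-04 ± 0.26) and 5.38, 4.85 and 5.35 (0.46 ± 0.36). Cxcl5 and Cxcr2 stayed in the background range at 2.81 to 3.03 and 3.66 to 4.14 in ASC-/- fat.

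Ligands that act on lymphocytes overlapped between ASC-/- and WT as well. Cxcl9 read 8.42, 8.06 and 8.83 in ASC-/- fat (-0.39 ± 0.29), Cxcl10 read 5.54, 5.77 and 6.41 (0.42 ± 0.29), and their receptor Cxcr3 read 4.40, 4.28 and 4.58 (-0.42 ± 0.19). Cxcl13 read 7.56, 5.45 and 7.80 (-0.50 ± 0.81, interval -2.32 to 1.32), an interval that covers differences of several-fold either way. Ccl19 read 6.70, 7.11 and 8.16 (0.32 ± 0.32), Ccl21b read 8.29, 7.67 and 9.59 (-0.045 ± 0.82) and Ccl11 read 9.25, 9.33 and 9.16 (-0.087 ± 0.42). In the background range, Ccl17 read 2.92, 3.56 and 3.65, Ccl22 3.65, 4.00 and 4.13, Cx3cl1 4.17, 4.21 and 4.53 and Cx3cr1 4.50, 4.85 and 4.96. Receptors Ccr3 and Cxcr5 spanned 3.22 to 3.49 and 3.47 to 3.76 there. Cxcr6 was the single member whose ASC-/- arrays (3.64, 3.45 and 3.32) did not overlap with WT (-0.30 ± 0.11), beside 3.19% of all genes without overlap (1.33% higher and 1.86% lower), and all of its values lay in the background range.

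**Figure D3:**
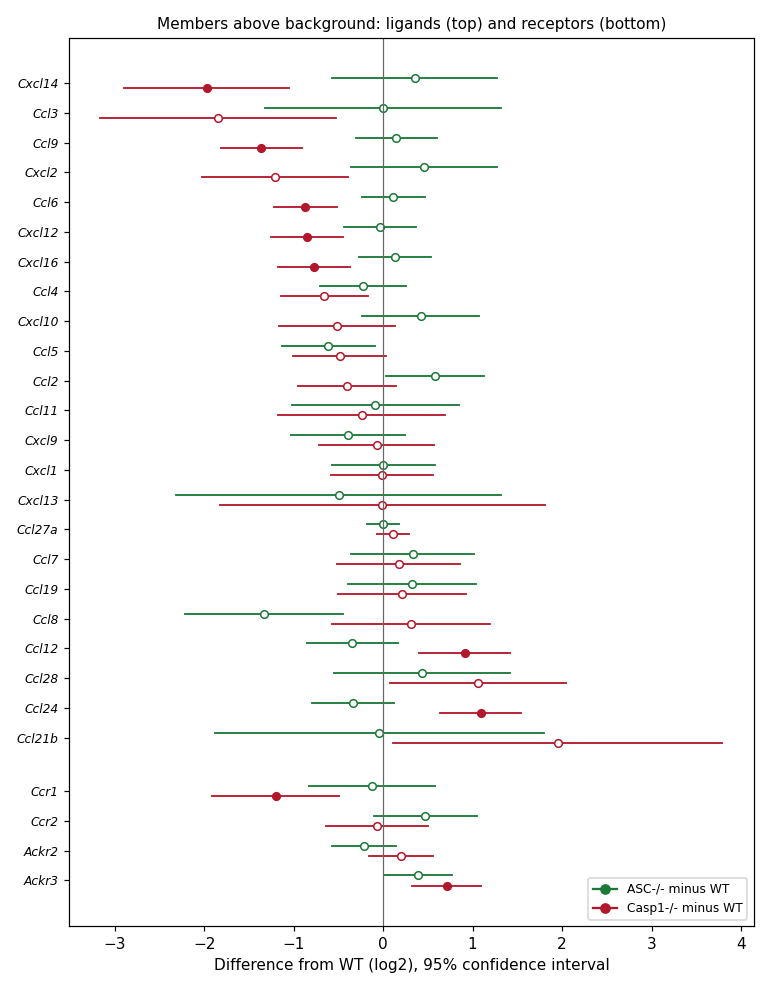
Log2 difference from WT with its 95% confidence interval for the 27 members above background in at least 1 genotype, ligands above and receptors below, ASC-/- minus WT over Casp1-/- minus WT for each gene; filled points passed the threshold. Filled points occur for Casp1-/- at 7 ligands and 2 receptors and for ASC-/- at none, and the interval of Ccl8 in ASC-/- runs from -2.21 to -0.45.

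Set against each other, the knockouts differed in 10 ligands and 0 receptors. ASC-/- fat was higher for Cxcl14, Cxcl2, Ccl9, Ccl6, Cxcl16 and Cxcl12 and lower for Ccl8, Ccl24, Ccl12 and Ccl17. Over all genes 7.39% passed, 3.85% higher and 3.54% lower, beside 29.4% of the ligands. At an unadjusted p under 0.05 there were 15 ligands and 5 receptors in limma, beside 26% of all genes, and the smallest adjusted p of a receptor was 0.0822 for Ccr1. No overlap was seen for 15 ligands, 10 higher and 5 lower, and for 5 receptors, 4 higher and 1 lower, beside 40.4% of all genes (17.3% higher and 23.1% lower). The median difference was 0.034 over ligands and -0.034 over receptors, beside -0.042 over all genes. Every array of ASC-/- lay in the low spike-in set and every array of Casp1-/- in the high set, so genotype and set cannot be told apart in a direct comparison.

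The 5 ligands already described as lower in Casp1-/- fat came out above it in ASC-/- fat, by 1.51 ± 0.21 for Ccl9 (adjusted p = 0.0106), 0.99 ± 0.17 for Ccl6 (adjusted p = 0.0148) and 0.90 ± 0.19 for Cxcl16 (adjusted p = 0.0272). Cxcl14 differed by 2.33 ± 0.44 (adjusted p = 0.0203), with the Casp1-/- arrays in the background range. Cxcl12 differed by 0.82 ± 0.19 (adjusted p = 0.0355) at its brightest probe set and by -0.071 at the next (adjusted p = 0.89). Added to them was Cxcl2, at 5.38, 4.85 and 5.35 in ASC-/- fat, against 3.44, 3.32 and 3.83 in Casp1-/- fat (1.67 ± 0.39 (SE), adjusted p = 0.0357). The ASC-/- arrays of Cxcl2 lay at the edge of the background range and the Casp1-/- arrays inside it, so the size is uncertain.

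Lower in ASC-/- than in Casp1-/- fat were Ccl24 (-1.43 ± 0.22 (SE), adjusted p = 0.0115) and Ccl12 (-1.26 ± 0.24 (SE), adjusted p = 0.0218), both without overlap. The ASC-/- mean of Ccl12, 4.75, lay within the background range, so the size of its difference is uncertain. Ccl8 read 8.99, 8.47 and 9.89 in ASC-/- fat, against 10.69, 11.22 and 10.37 in Casp1-/- fat, which is 3.13-fold lower (-1.64 ± 0.42 (SE), adjusted p = 0.0464). Ccl17 read 2.92, 3.56 and 3.65 in ASC-/- fat, against 4.24, 4.85 and 4.28 in Casp1-/- fat, all in the background range (-1.08 ± 0.27 (SE), adjusted p = 0.0431). Ccl8 and Ccl17 passed in this contrast and in neither contrast with WT. Ccl2 came close to the threshold (0.98 ± 0.26 (SE), adjusted p = 0.0522), with every ASC-/- array above every Casp1-/- array.

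With the spike-in set as a block none of these 10 calls remained, and the differences kept their signs: 0.87 for Ccl9, 0.53 for Ccl6, 1.49 for Cxcl14, 0.31 for Cxcl16, 0.57 for Cxcl12, 0.63 for Cxcl2, -1.22 for Ccl24, -1.13 for Ccl12, -1.21 for Ccl8 and -0.57 for Ccl17. Leaving out 1 array ended the call of Ccl9 for ASC-/- replicate 1 or Casp1-/- replicate 2 (1.35 to 1.45, adjusted p = 0.0505 to 0.0527), of Ccl24 for ASC-/- replicate 1 or Casp1-/- replicate 2 (-1.36 to -1.26, adjusted p = 0.0527 to 0.0545) and of Ccl12 for ASC-/- replicates 1 or 2 or Casp1-/- replicate 2 (-1.22 to -0.97, adjusted p = 0.0598 to 0.0918). The call of Ccl6 ended without ASC-/- replicates 1 or 2 or Casp1-/- replicates 2 or 3 (0.92 to 0.99, adjusted p = 0.0528 to 0.0696), that of Cxcl14 without ASC-/- replicates 1, 2 or 3 or Casp1-/- replicates 1, 2 or 3 (2.13 to 2.58, adjusted p = 0.0507 to 0.0904) and that of Cxcl16 without ASC-/- replicates 1, 2 or 3 or Casp1-/- replicates 1, 2 or 3 (0.83 to 0.95, adjusted p = 0.0684 to 0.107). Those of Cxcl12, Cxcl2, Ccl8 and Ccl17 ended without 6 to 8 of the 10 arrays each. ASC-/- replicate 1 and Casp1-/- replicate 2 were among these arrays for each gene, with differences of 0.69, 1.56, -1.41 and -0.88 without the latter.

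Neighbouring CC ligand genes did not all go the same way. By gene order in the RefSeq annotation of GRCm38.p6, members at most 30 genes apart were put together, which gave a group of 6 on chromosome 11 (Ccl2, Ccl7, Ccl11, Ccl12, Ccl8 and Ccl1) and a group of 5 further along it (Ccl5, Ccl9, Ccl6, Ccl3 and Ccl4). In Casp1-/- minus WT the first had a median of 0.22, with 4 of 6 estimates above 0 and Ccl12 past the threshold. The group around Ccl9 had a median of -0.87, with all 5 estimates below 0 and Ccl9 and Ccl6 past it. Over all genes, 7307 of 17097 estimates were below 0, and 3.86% passed as lower and 4.31% as higher. With the spike-in set as a block the differences were 0.82 for Ccl12, -0.89 for Ccl9 and -0.53 for Ccl6. In ASC-/- minus WT the group medians were -0.063 and -0.0014. On chromosome 9 the receptor genes Ccr9, Cxcr6, Xcr1, Ccr1, Ccr1l1, Ccr3 and Ccr2 had a median of -0.11 in Casp1-/- minus WT, all 7 below 0 with Ccr1 alone past the threshold, and 5 of them in the background range. Casp1 lies on chromosome 9 as well, with 2448 genes between it and Ccr1. Pycard is on chromosome 7, where 2734 genes separate it from Cxcl17, the single member there.

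**Figure D4:**
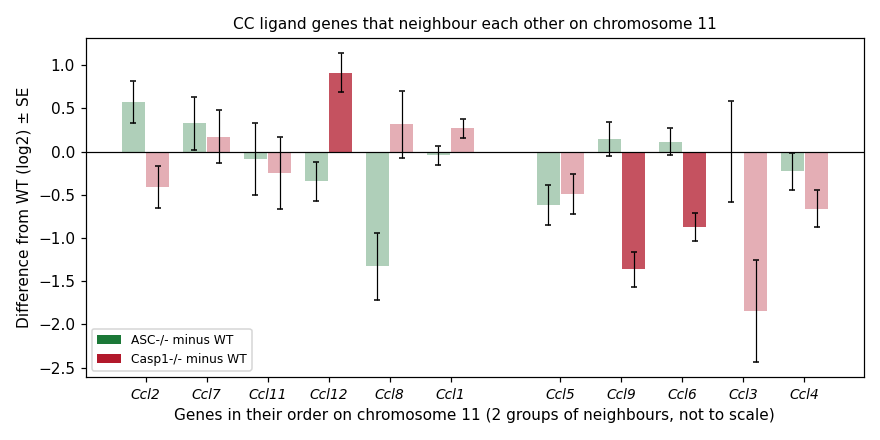
Log2 difference from WT ± SE for 11 CC ligand genes in their order along chromosome 11, ASC-/- minus WT (green) beside Casp1-/- minus WT (red) for each gene, darker bars being past the threshold and distances not to scale. All 5 Casp1-/- bars of the group from Ccl5 to Ccl4 lie below 0, and 4 of 6 in the group from Ccl2 to Ccl1 lie above it.

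The stretch of 250 bases before the annotated start is shown for 6 called ligands, neighbours among them, and for Cxcl1, which was not called and is the closest match to Cxcl2, so that shared letters can be seen. Sequences are from RefSeq (GRCm38.p6), each written 5' to 3' on the strand of its gene. Capitals mark matches to the motifs searched. Ccl9 lies at chr11:83578637-83578886 on the minus strand and Ccl6 at chr11:83593088-83593337 on the minus strand. Cxcl14 is at chr13:56296552-56296801, minus strand. Ccl12 is at chr11:82101595-82101844 and Ccl8 at chr11:82114935-82115184, both on the plus strand. Cxcl1 is at chr5:90890995-90891244 and Cxcl2 at chr5:90903649-90903898, both on the plus strand.
Ccl9: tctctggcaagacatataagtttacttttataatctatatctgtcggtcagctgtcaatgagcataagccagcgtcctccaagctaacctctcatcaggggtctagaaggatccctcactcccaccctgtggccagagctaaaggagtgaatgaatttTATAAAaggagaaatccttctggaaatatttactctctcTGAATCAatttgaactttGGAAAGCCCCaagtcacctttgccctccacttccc
Ccl6: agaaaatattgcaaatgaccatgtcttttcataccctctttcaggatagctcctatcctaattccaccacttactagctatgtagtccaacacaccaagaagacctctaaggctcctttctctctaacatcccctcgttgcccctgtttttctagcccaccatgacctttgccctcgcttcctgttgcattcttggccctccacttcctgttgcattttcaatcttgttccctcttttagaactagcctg
Cxcl14: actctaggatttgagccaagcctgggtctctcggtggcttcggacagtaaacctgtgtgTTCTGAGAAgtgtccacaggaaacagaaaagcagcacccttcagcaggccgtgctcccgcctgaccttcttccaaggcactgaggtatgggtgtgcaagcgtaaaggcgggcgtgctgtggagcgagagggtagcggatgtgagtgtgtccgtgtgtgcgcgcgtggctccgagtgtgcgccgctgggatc
Ccl12: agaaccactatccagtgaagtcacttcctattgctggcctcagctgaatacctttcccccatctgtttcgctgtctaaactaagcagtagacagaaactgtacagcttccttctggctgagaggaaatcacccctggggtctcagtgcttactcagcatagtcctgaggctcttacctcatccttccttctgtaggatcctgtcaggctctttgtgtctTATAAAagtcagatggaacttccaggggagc
Ccl8: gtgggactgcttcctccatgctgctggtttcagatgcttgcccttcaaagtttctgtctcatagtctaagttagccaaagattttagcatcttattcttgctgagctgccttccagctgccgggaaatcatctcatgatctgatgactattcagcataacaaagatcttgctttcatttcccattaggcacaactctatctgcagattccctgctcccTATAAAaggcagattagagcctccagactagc
Cxcl1: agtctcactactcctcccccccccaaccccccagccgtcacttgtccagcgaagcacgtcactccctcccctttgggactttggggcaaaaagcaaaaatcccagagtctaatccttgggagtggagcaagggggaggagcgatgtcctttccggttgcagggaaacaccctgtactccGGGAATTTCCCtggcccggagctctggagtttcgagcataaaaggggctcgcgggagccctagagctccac
Cxcl2: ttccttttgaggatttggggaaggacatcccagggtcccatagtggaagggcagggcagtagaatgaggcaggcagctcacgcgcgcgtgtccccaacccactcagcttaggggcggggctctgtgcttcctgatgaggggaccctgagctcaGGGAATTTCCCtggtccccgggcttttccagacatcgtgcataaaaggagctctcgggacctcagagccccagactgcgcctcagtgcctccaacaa

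Cxcl1 and Cxcl2 share an NF-kB consensus that overlaps itself on both strands, GGGAATTTCCC, which starts 71 bases before the start of Cxcl1 and 97 before that of Cxcl2. They were the pair with the highest local alignment score of all 780 pairs of members with a promoter, with 86 of 121 aligned bases identical. In ASC-/- minus Casp1-/- the difference was 0.014 for Cxcl1, which did not pass, and 1.67 for Cxcl2, which did. Ccl12 and Ccl8, the next neighbours on chromosome 11, had 40 of 57 aligned bases identical and TATAAA at 31 and 32 bases before the start. Ccl9 held TATAAA further out, a TGANTCA match and an NF-kB consensus. The promoter of Ccl6 held none of the motifs, and its best alignment with that of Ccl9 was 16 of 17 bases.

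The motifs were searched in 44 promoters of 40 members, since some genes have several starts, and in all 32851 promoters of the table. The NF-kB consensus was in 10 of the 44 and in 7.25% of all. TGANTCA, a loose form of the AP-1 site with any base in the middle, was in 5 and 6.75%. The Ccl9 match among the 5 read TGAATCA. The GAS motif of STAT factors (TTCNNNGAA) was in 4, Cxcl14 and Ccl17 among them, and 7.02%, and the PU.1 motif (GAGGAAGT) in 1, Cxcr3, and 2.44%. All of these were searched on both strands, and matches of different motifs may overlap. TATAAA, searched on the strand of the gene, was in 10 and 7.59%. A match is a description of letters and not a measured binding site.

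Genes related to chemokines by function were listed apart, since their names fall outside the pattern. Of 10 measured, 1 was higher and 2 lower in Casp1-/- than in WT, and 1 higher and 0 lower both with the spike-in block and without Casp1-/- replicate 2. Cmklr1, the receptor for chemerin, averaged 9.61 in Casp1-/- and 8.44 in WT (1.18 ± 0.14 (SE), adjusted p = 0.00617). C5ar1, the receptor for complement C5a, averaged 6.24 in Casp1-/- and 8.55 in WT (-2.32 ± 0.37 (SE), adjusted p = 0.0124). Cklf, a secreted chemoattractant, averaged 5.92 in Casp1-/- and 7.33 in WT (-1.41 ± 0.36 (SE), adjusted p = 0.0436). None of the 10 passed in ASC-/- minus WT, and in ASC-/- minus Casp1-/- C5ar1 and Cklf were higher and Cmklr1 lower. In that contrast 0 of the 10 passed with the spike-in block, and 0 were higher and 1 lower without Casp1-/- replicate 2.

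Signalling genes downstream of chemokine receptors were mostly lower where they passed. Of 35 measured, 10 were lower and 1 higher in Casp1-/- than in WT, beside 3.86% lower and 4.31% higher of all genes. The list median was -0.26. The 4 with the smallest p were Rgs2, a brake on G protein signalling (-1.77 ± 0.27 (SE), adjusted p = 0.0111), Pik3r5, a subunit of the PI3-kinase that G proteins activate (-2.18 ± 0.37 (SE), adjusted p = 0.0155), Dock2, which drives leukocyte migration (-1.53 ± 0.28 (SE), adjusted p = 0.0191), and Prex1, an exchange factor for Rac (-1.29 ± 0.24 (SE), adjusted p = 0.0192). In ASC-/- minus WT 1 of the 35 passed, Dock2, which was lower (-2.66 ± 0.28 (SE), adjusted p = 0.0147). In Casp1-/- minus WT 0 of the 35 passed with the spike-in block and 0 without Casp1-/- replicate 2, with list medians of -0.047 and -0.20. The macrophage marker means given above were lower in the same arrays, and their part in the list's count was not tested.

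Cytokines known to induce chemokine genes were largely dim. Of 19 measured, 13 lay within the background range, and 0 passed in either comparison with WT. The interleukin-1 beta gene Il1b averaged 3.94 in ASC-/-, 4.17 in Casp1-/- and 3.98 in WT, which is within that range. In ASC-/- minus Casp1-/- Tslp, an epithelial cytokine, was lower (-0.81 ± 0.10 (SE), adjusted p = 0.00865). With the spike-in block 0 of the 19 passed there, and without Casp1-/- replicate 2 there was 1, which was lower.

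Markers of other leukocytes were compared beside the ligands that act on them. Of 9 neutrophil markers, 5 eosinophil markers, 8 mast cell markers, 13 T and NK cell markers and 8 B cell markers, 0 passed in Casp1-/- minus WT, beside 8.17% of all genes. Many were dim, which limits what these counts can show. Within the background range were 5 neutrophil, 3 mast cell, 10 T and NK cell and 5 B cell markers. The mast cell median difference was -0.88, with means of 4.75 to 5.67 in Casp1-/- and 5.40 to 6.98 in WT. Eosinophil means were 3.76 to 4.03 in Casp1-/- and 3.67 to 4.05 in WT, with 4 of 5 markers in the background range, beside the higher Ccl24. Neutrophil means were 5.20 to 5.74 in Casp1-/- and 5.09 to 5.54 in WT, and T and NK cell means were 4.18 to 4.37 in Casp1-/- and 4.16 to 4.49 in WT. Of 7 dendritic cell markers 1 was higher in Casp1-/- than in WT and none was lower, and 0 passed with the spike-in block or without Casp1-/- replicate 2.

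The remaining 18 members, 9 ligands and 9 receptors, gave no call in any comparison. The ligands were Ccl1, Ccl20, Ccl25, Ccl27a, Ccl28, Cxcl11, Cxcl15, Cxcl17 and Xcl1, with array values of 3.14 to 6.27. Their differences ran from -0.16 to 1.06 in Casp1-/- minus WT, and from -0.14 to 0.43 in ASC-/- minus WT. The upper end in both was Ccl28, a mucosal chemokine, at 4.10, 4.59 and 5.92 in ASC-/-, 5.89, 4.94 and 5.68 in Casp1-/- and 4.24, 5.20, 4.11 and 4.21 in WT. Cxcl11 is listed as a transcribed pseudogene in the RefSeq table, and its mean lay in the background range in every genotype.

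The receptors were Ackr2, Ackr4, Ccr10, Ccr1l1, Ccr4, Ccr6, Ccr8, Ccr9 and Xcr1. Differences among them ran from -0.11 to 0.83 in Casp1-/- minus WT and from -0.21 to 0.19 in ASC-/- minus WT. Ackr2, which scavenges inflammatory CC ligands, was the only one above background, at 6.90, 6.51 and 7.07 in ASC-/-, 7.43, 7.33 and 6.97 in Casp1-/- and 7.13, 6.87, 7.19 and 6.97 in WT, and the genotypes overlapped. Ackr4, the scavenger of Ccl19, Ccl21 and Ccl25, gave the upper end of 0.83, with Casp1-/- replicate 2 the highest array, at 4.37, 5.43 and 3.91 in Casp1-/-, against 3.77, 3.95, 3.52 and 3.71 in WT. In all, 14 of the 18 receptors had means in the background range in every genotype, with differences from -0.33 to 0.83 in Casp1-/- minus WT. Receptor genes of sparse cells can be present at levels that this array does not resolve in whole fat.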

How the data were processed

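RNA of epididymal fat from 10 mice was hybridised to 1 HT_MG-430 PM array each (3 ASC-/-, 3 Casp1-/- and 4 WT, grouped by title). Per the submitters' processing notes, RMA was the authors' method, and the deposited values are on the log2 scale. Neither its version nor a genome build is given in the sources used here. RMA gives all arrays a common distribution, so values are relative within an array.

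Of 45141 probe sets, 28898 carry 1 symbol, 551 several and 15588 none, beside 104 controls. Those with 1 symbol gave 17097 genes, each read by the probe set of highest mean. For 52 members there were 78 probe sets, 17 members having several, and 2 probe sets shared between Ackr4 and Acad11 were left out. Limma 3.58.1 in R 4.3.3 fitted 1 mean per genotype over all 10 arrays without covariates (7 residual and 2.43 prior degrees of freedom). Tests are two-sided, adjusted by Benjamini-Hochberg over all 17097 genes, at 0.05. P-values set each difference against the spread between these mice within a genotype, and the number of arrays limits precision. In contrasts with Casp1-/- they do not separate genotype from spike-in set. The procedure was tested on simulated data.

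Members and lists were chosen with earlier results of these data known. The 18 lists held 250 entries, of which 211 were measured. Array values are printed for members past the threshold, for members above background without overlap and for a fixed list of chemokine axes, and other members by range. From lists, at most 4 genes past the threshold with the smallest p are named. RefSeq supplied promoters for 40 members, and those of Ccl24 and Cxcl16 were not used here.

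Alternatives were median centring, renewed quantile normalization, leaving out the dimmest genes (16391 left), the mean over probe sets, every probe set, a trended and robust prior, array weights, only the compared groups, replicate number, spike-in set or actin 3' minus 5' signal in the model, and leaving out each array.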

Additional observations from a re-analysis of the deposited data

Results flagged for a closer look

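Of 52 chemokine genes, 5 had a WT array far from the other 3 by Dixon's test at the 95% level, which divides the gap to the nearest array by the range of the 4 WT arrays. By chance this happens in about 1 of 20 groups. Groups of 3 arrays were not examined in this way.

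Ccl8 had a low value in WT replicate 4, 9.56, with a gap of 0.931 of the range, and it was the only WT array below an ASC-/- array for that ligand. Without it the difference in ASC-/- minus WT was -1.62 (adjusted p = 0.981 in limma), against -1.33 with all arrays. The brightest Cxcl12 probe set was high in WT replicate 3, 11.60, with a gap of 0.832. Ccl28 was high in WT replicate 2, 5.20, with a gap of 0.877, while the other WT arrays lay within the background range. Ccl20 in WT replicate 3 (4.06, gap 0.926) and Cxcl15 in WT replicate 1 (3.43, gap 0.852) stood apart within the background range, where differences of this size carry little information.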

How the results depend on the processing

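The 19 calls (9 in Casp1-/- minus WT, 10 in ASC-/- minus Casp1-/-) kept their signs under every alternative but those by probe set, where Cxcl12 turned to 0.18 and 0.027 (Casp1-/- minus WT) and to -0.071 and -0.019 (ASC-/- minus Casp1-/-) at its dimmer probe sets. All 19 held with the dimmest genes left out, with a trended and robust prior and with array weights, 18 with median centring and with renewed quantile normalization, 17 with the mean over probe sets, 14 with only the compared groups and 7 with the actin covariate. With the spike-in set as a block, and with the replicate number as a block, 0 ligands and 0 receptors passed in all contrasts. Replicate numbers did not pair the arrays (correlations of deviations -0.26 to 0.19), so the replicate block tells nothing of a weaker effect. Over all genes, the spike-in block left 120 calls of 1397 in Casp1-/- minus WT and 63 of 1264 in ASC-/- minus Casp1-/-, and the replicate block 9 and 19. With actin ASC-/- minus Casp1-/- had 231, with array weights the counts were 2998 and 3428, and with only the compared groups 469 and 3248; in ASC-/- minus WT that setting and the replicate block left 3 of 6.

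In Casp1-/- minus WT the ligand count, 7 of 34, was 11 with array weights and 3 with only the compared groups. The receptor count, 2 of 18, was 1 with median centring, quantile normalization, only the compared groups or every probe set tested, and 0 with actin. In ASC-/- minus Casp1-/- the ligand count, 10, was 1 with actin, and the receptor count, 0, was 3 with array weights and 1 with only the compared groups. The receptor median was 0.047 in Casp1-/- minus WT with the spike-in block, and 0.024 in ASC-/- minus Casp1-/- over every probe set. The cause of these shifts was not tested.

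Leaving out 1 array gave 0 to 11 ligands in Casp1-/- minus WT and in ASC-/- minus Casp1-/-, and 0 to 3 and 0 to 1 receptors. Without Casp1-/- replicate 2 no member passed, while without WT replicate 1 there were 11 ligands and 3 receptors in Casp1-/- minus WT. Without ASC-/- replicate 1 no member passed in ASC-/- minus Casp1-/-. Over all genes, Casp1-/- minus WT had from 64 calls, without Casp1-/- replicate 2, to 3018, without WT replicate 1. The range in ASC-/- minus Casp1-/- was from 47, without ASC-/- replicate 1, to 2615, without WT replicate 3. The ligand and receptor medians spanned -0.15 to -0.054 and -0.059 to -0.0073 in Casp1-/- minus WT, -0.11 to 4.9e-05 and -0.034 to -0.0081 in ASC-/- minus WT, and -0.050 to 0.11 and -0.085 to 0.013 in ASC-/- minus Casp1-/-. In ASC-/- minus WT no alternative called a member. Signals within the background range limit what can be said of 25 of the 52 members.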

Other observations

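Without Casp1-/- replicate 2 no member passed the threshold in either contrast with Casp1-/-. Over all genes 64 passed then in Casp1-/- minus WT and 68 in ASC-/- minus Casp1-/-. Without ASC-/- replicate 1 no member passed in ASC-/- minus Casp1-/- either, and 47 of all genes did. Casp1-/- replicate 2 had the highest value of all 10 arrays for Ccl8 (11.22), Ccl12 (6.58), Ccl17 (4.85), Ccl21b (11.28) and Ackr4 (5.43). The same array had the highest mean of 9 mesothelial markers, 8.06, with 6.37 to 6.86 in ASC-/- and 6.24 to 7.25 in WT. It also had the highest mean of 7 epididymis markers, 4.16, with 3.37 to 3.48 in ASC-/- and 3.38 to 3.83 in WT. Of these 7, 6 lay within the background range. Its pan-macrophage mean, 8.74, was the lowest of all arrays. None of the mesothelial or epididymis markers passed in Casp1-/- minus WT, and their part in the chemokine values was not tested.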
